A study of Mus musculus with 24 samples.

Results

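The transcription factor p53 and 29 of its target genes or regulators were followed in murine B-cell acute lymphoblastic leukaemia cells, as 30 genes out of the 41444 listed in the processed RNA-sequencing tables. They were taken by gene symbol: 29 symbols stood in the tables, and Tigar stood there under its older symbol 9630033F20Rik. The cells carry the BCR-ABL1 oncogene, floxed Foxo1 alleles (Foxo1 fl/fl) and Cre-ERT2, a Cre recombinase that enters the nucleus and cuts out floxed DNA once 4-hydroxytamoxifen (4-OHT) binds it. Every group used here, vehicle groups included, has this genotype. The tissue label is bone marrow, and neither the number of independent leukaemia lines nor the age of the donor animals is given in the sources used here. The deletion arm compared 200 nM 4-OHT with its vehicle ethanol (EtOH) after 24 h and after 48 h. The compound arm compared 70 nM AS1842856, described as an inhibitor of FOXO1 and GSK3, with dimethyl sulfoxide (DMSO) at the same times. This gives 8 groups of 3 libraries, 24 in all. No group without Cre or without floxed alleles was analysed here, so 4-OHT itself, active Cre and the loss of Foxo1 cannot be told apart.

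As background, p53 is held at a low level by the ubiquitin ligase MDM2 and its partner MDM4, and DNA breaks free it through the kinases ATM, ATR, CHK1 and CHK2. Stabilised p53 then switches on genes that stop the cell cycle, repair DNA or start apoptosis, along with Mdm2 itself, which closes a negative feedback loop. Most of this control acts on the protein, so the level of Trp53 mRNA need not follow p53 activity. Active Cre can nick or cut cellular DNA outside its own sites, which is the reason to read these genes in a Cre experiment.

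The DNA element that p53 recognises is made of 2 copies of a decamer, separated by a short spacer, and it is shown here because p53 reads its direct targets through it. RefSeq promoter windows (GRCm38.p6, 250 bases before to 50 after a start) were matched for 23 of the 30 genes, giving 32 windows. The decamer was present in 11 of the 32 windows, in 10 genes, against 8.36% of all 32851 promoter windows of that length. Both copies with a spacer of up to 13 bases were found in 1 window, that of Cdkn1a, against 0.0731% of all windows. The decamer pattern reads the same on both strands, so a single search covers both. Below, capitals mark the decamer, and each line is the strand of the gene, 5′ to 3′.
Cdkn1a, chr17:29090896-29090925, plus strand: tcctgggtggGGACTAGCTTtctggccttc
Cdkn1a, chr17:29090918-29090947, plus strand: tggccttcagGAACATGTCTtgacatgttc
Mdm2, chr10:117710925-117710954, minus strand: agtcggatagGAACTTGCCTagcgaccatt
Ccng1, chr11:40755452-40755481, minus strand: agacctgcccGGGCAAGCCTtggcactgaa
Bax, chr7:45467080-45467109, minus strand: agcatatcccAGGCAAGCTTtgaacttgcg
Aen, chr7:78895927-78895956, plus strand: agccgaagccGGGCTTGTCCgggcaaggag
Rps27l, chr9:66946296-66946325, plus strand: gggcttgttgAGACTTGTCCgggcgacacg
Ppm1d, chr11:85311112-85311141, plus strand: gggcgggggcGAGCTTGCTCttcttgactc
Trp53, chr11:69580274-69580303, plus strand: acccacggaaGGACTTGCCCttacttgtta
The Aen decamer lies in the windows of both of its annotated starts and after 1 of them. The Rps27l decamer shown lies 107 bases before the start of its window but inside the annotated gene span, which begins at 66946086. The others shown lie before the start. Rps27l held a second decamer, and Ei24 and Polk held 1 each. The genes shown include some that rose and some that fell with 4-OHT, as described below. The FOXO motif GTAAACA, searched on both strands, lay in 3 of the 32 windows (Mdm2, Bbc3 and Eda2r), against 3.65% of all windows. A match describes the sequence and does not show that a factor binds there.

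Library values are the authors' log2 expression values, and a difference is the mean of the 3 treated libraries minus that of the 3 vehicle libraries, on the log2 scale, ± its standard error. Tests used limma over the 11470 genes whose deposited mean was at least the log2 of 11. That is a normalised count of 10 only if the mean is the log2 of a count plus 1, which is not given. Benjamini-Hochberg adjustment covered all of these genes, and a gene passed at an adjusted p under 0.05. The labels do not say whether the libraries of a group were separate cultures, so p-values measure the spread between these libraries. Foxo1 itself was 9.88, 9.84 and 9.80 with EtOH and 8.18, 8.27 and 7.99 with 4-OHT at 24 h. At 48 h it was 10.02, 10.11 and 10.07 with EtOH and 8.16, 8.02 and 8.12 with 4-OHT. It therefore fell by 1.69 ± 0.07 (adjusted p = 4.09e-06) and fell by 1.97 ± 0.06 (adjusted p = 1.01e-07), with no overlap between groups, so the label 4-OHT matched the level of the targeted gene. The tables give 1 value for the whole gene, which includes any reads from outside the floxed part. In the compound arm Foxo1 was 9.61, 9.74 and 9.71 with DMSO and 9.29, 9.49 and 9.74 with AS1842856 at 24 h, then 9.69, 9.40 and 9.34 with DMSO and 9.35, 9.15 and 9.05 with AS1842856 at 48 h (limma adjusted p = 1 and 0.196). The root mean square difference of a library from its group mates, over the tested genes, was 0.159 to 0.177 in the deletion arm and 0.184 to 0.285 in the compound arm. The third AS1842856 library at 24 h (0.285) and the first DMSO library at 48 h (0.274) stood farthest from their mates. Depth is unknown, because the tables hold no counts.

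Of the 30 genes, 25 were tested and 5 had a mean below the log2 of 11. Perp, a p53-induced membrane protein of cell junctions, was listed at 0 in every library. Eda2r, a receptor of the tumour necrosis factor family, lay between -2.20 and -2.19. The kinase gene Plk2 lay between -2.08 and -2.07, and the death receptor gene Fas between -1.71 and -1.68. Phlda3, which encodes an inhibitor of AKT, lay between 1.85 and 2.17. None of these 5 was high in any treated group, and no test was made on them. Among the 25 tested genes the range over all 24 libraries was widest for Cdkn1a (1.74), Bbc3 (1.25) and Pidd1 (1.18) and narrowest for Ccng1 (0.32), Xpc (0.34) and Trp53 (0.36), in log2 units.

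Trp53 (chr11:69580359-69591873, plus strand, GRCm38) encodes p53, and its mRNA was close to level across the 24 libraries, from 11.26 to 11.63. At 24 h it was 11.58, 11.50 and 11.50 with EtOH and 11.47, 11.47 and 11.48 with 4-OHT, a difference of -0.05 ± 0.03 that did not pass (adjusted p = 0.318). At 48 h it was 11.47, 11.45 and 11.43 with EtOH and 11.38, 11.33 and 11.26 with 4-OHT, and it fell by 0.12 ± 0.04 (adjusted p = 0.0206). The 4-OHT libraries lay below the EtOH libraries at both times. The 48 h call was lost in 3 of the 6 fits that left out 1 library (the first or second EtOH or the third 4-OHT library). In the compound arm Trp53 differed by -0.04 ± 0.07 at 24 h and -0.10 ± 0.05 at 48 h, and neither passed (adjusted p = 1 and 0.33).

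Among the genes that restrain p53, Mdm2 was below EtOH at 24 h, and its response had changed by 48 h. It was 10.38, 10.39 and 10.35 with EtOH and 10.29, 10.20 and 10.23 with 4-OHT at 24 h, where it fell by 0.13 ± 0.04 (adjusted p = 0.0334). It was 10.17, 10.19 and 10.29 with EtOH and 10.32, 10.35 and 10.28 with 4-OHT at 48 h, where the difference of 0.10 ± 0.04 did not pass (adjusted p = 0.0894) and the groups overlapped. The 24 h call held in 1 of 6 fits without 1 library, that without the first 4-OHT library, and the authors' own test did not make it. The change of response between the times, 0.23 ± 0.06, passed (adjusted p = 0.0163) and held in each of 12 fits without 1 library. Mdm4, whose product binds p53 and blocks its activity, differed by -0.15 ± 0.09 at 24 h and 0.19 ± 0.07 at 48 h, and neither passed. Ppm1d encodes the phosphatase WIP1, which removes damage-induced phosphates and is itself a p53 target. It was 9.20, 9.04 and 9.12 with EtOH and 9.35, 9.39 and 9.35 with 4-OHT at 48 h, without overlap, and rose by 0.25 ± 0.05 (adjusted p = 0.00454). After 24 h it was 9.17, 9.06 and 9.14 with EtOH and 9.26, 9.16 and 9.26 with 4-OHT, a difference of 0.11 ± 0.05 that did not pass.

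**Figure D1:**
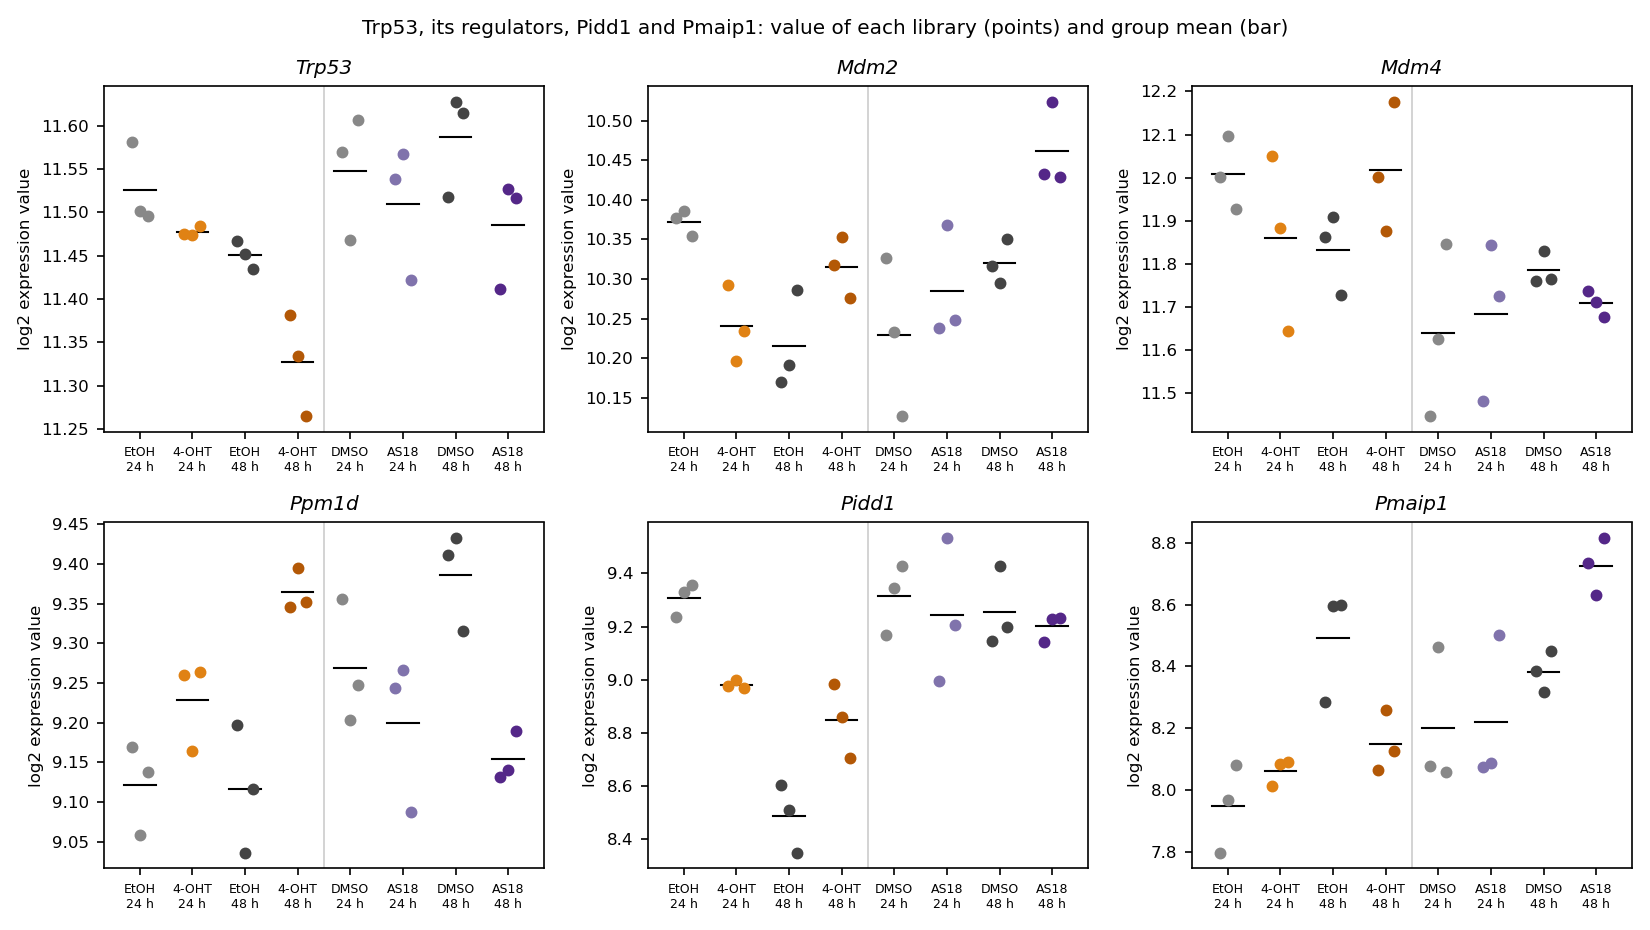
Log2 expression value (vertical axis, a separate scale in each panel) of Trp53, Mdm2, Mdm4, Ppm1d, Pidd1 and Pmaip1 in each of the 24 libraries; points are libraries, bars are means of 3, and the line separates the deletion arm from the compound arm. The panels show Pidd1 falling in EtOH between 24 h and 48 h, and Ppm1d above EtOH with 4-OHT but below DMSO with AS1842856 at 48 h.

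Of the targets that stop the cell cycle, Cdkn1a stood out. It lies at chr17:29090976-29100727 (plus strand), encodes p21, an inhibitor of cyclin-dependent kinases, and is a direct target of both p53 and FOXO factors. At 24 h it was 7.44, 7.80 and 7.83 with EtOH and 8.49, 8.59 and 8.54 with 4-OHT. At 48 h it was 8.11, 8.35 and 8.48 with EtOH and 9.05, 9.10 and 9.14 with 4-OHT. The 4-OHT libraries lay above all EtOH libraries of their time, and the gene rose by 0.85 ± 0.10 (adjusted p = 0.000644) and 0.78 ± 0.09 (adjusted p = 0.00011). Both calls held in every fit that left out 1 library. The log2 folds of the authors' deposited table correspond to folds of 1.83 and 1.72. The adjusted p of the authors' test there was 0.0207 at 24 h and 0.0447 at 48 h. The annotated span of Cdkn1a overlaps AC167363.2 on the opposite strand over 1046 bases. Ccng1, which encodes cyclin G1 and acts in the feedback on MDM2, was 10.37, 10.37 and 10.40 with EtOH and 10.60, 10.65 and 10.59 with 4-OHT at 48 h and rose by 0.23 ± 0.03 (adjusted p = 0.000524), again without overlap. The 24 h values were 10.41, 10.33 and 10.36 with EtOH and 10.45, 10.53 and 10.46 with 4-OHT, and the difference of 0.11 ± 0.04 did not pass (adjusted p = 0.0718). Plk3, a stress-responsive kinase gene, moved the other way: it was 6.16, 6.31 and 6.38 with EtOH and 5.97, 5.82 and 5.92 with 4-OHT at 48 h and fell by 0.38 ± 0.09 (adjusted p = 0.00593), without overlap. At 24 h Plk3 was 6.08, 6.23 and 6.18 with EtOH and 6.14, 6.003 and 5.94 with 4-OHT, which overlapped, and the difference of -0.13 ± 0.08 did not pass.

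The repair genes split. Ddb2, whose product recognises ultraviolet lesions, was 8.20, 8.26 and 8.26 with EtOH and 8.71, 8.64 and 8.70 with 4-OHT at 24 h, then 8.20, 8.34 and 8.36 and 8.74, 8.74 and 8.79 at 48 h. It rose by 0.44 ± 0.05 and 0.46 ± 0.06 (adjusted p = 0.000502 and 0.00029), without overlap at either time. Its annotated span overlaps Acp2 on the opposite strand over 2527 bases, and whether the counting used strand is not given in the sources used here. Acp2 itself differed by 0.07 ± 0.14 at 24 h and 0.31 ± 0.16 at 48 h and did not pass (limma adjusted p = 0.734 and 0.141). Rrm2b encodes the p53-inducible small subunit of ribonucleotide reductase, which makes deoxynucleotides for repair, and it fell. It was 9.40, 9.38 and 9.34 with EtOH and 9.02, 8.84 and 8.81 with 4-OHT at 24 h, and 9.63, 9.80 and 9.87 and 8.92, 9.04 and 8.98 at 48 h. The falls were 0.48 ± 0.06 and 0.79 ± 0.07 (adjusted p = 0.000813 and 2.03e-05), and both held in every fit without 1 library. An antisense gene and a processed pseudogene lie within Rrm2b, so its reads are not certain to be its own. Ercc5, which encodes the endonuclease XPG, differed by -0.11 ± 0.10 at 24 h and rose by 0.21 ± 0.08 at 48 h (adjusted p = 0.0464). That 48 h call held in 2 of 6 fits without 1 library, those without the first 4-OHT or the second EtOH library, and was absent from the authors' test. Xpc, a lesion sensor, and Polk, a translesion polymerase, did not pass at either time, with differences of -0.14 ± 0.05 and -0.12 ± 0.07 for Xpc and -0.05 ± 0.05 and -0.0038 ± 0.07 for Polk.

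**Figure D2:**
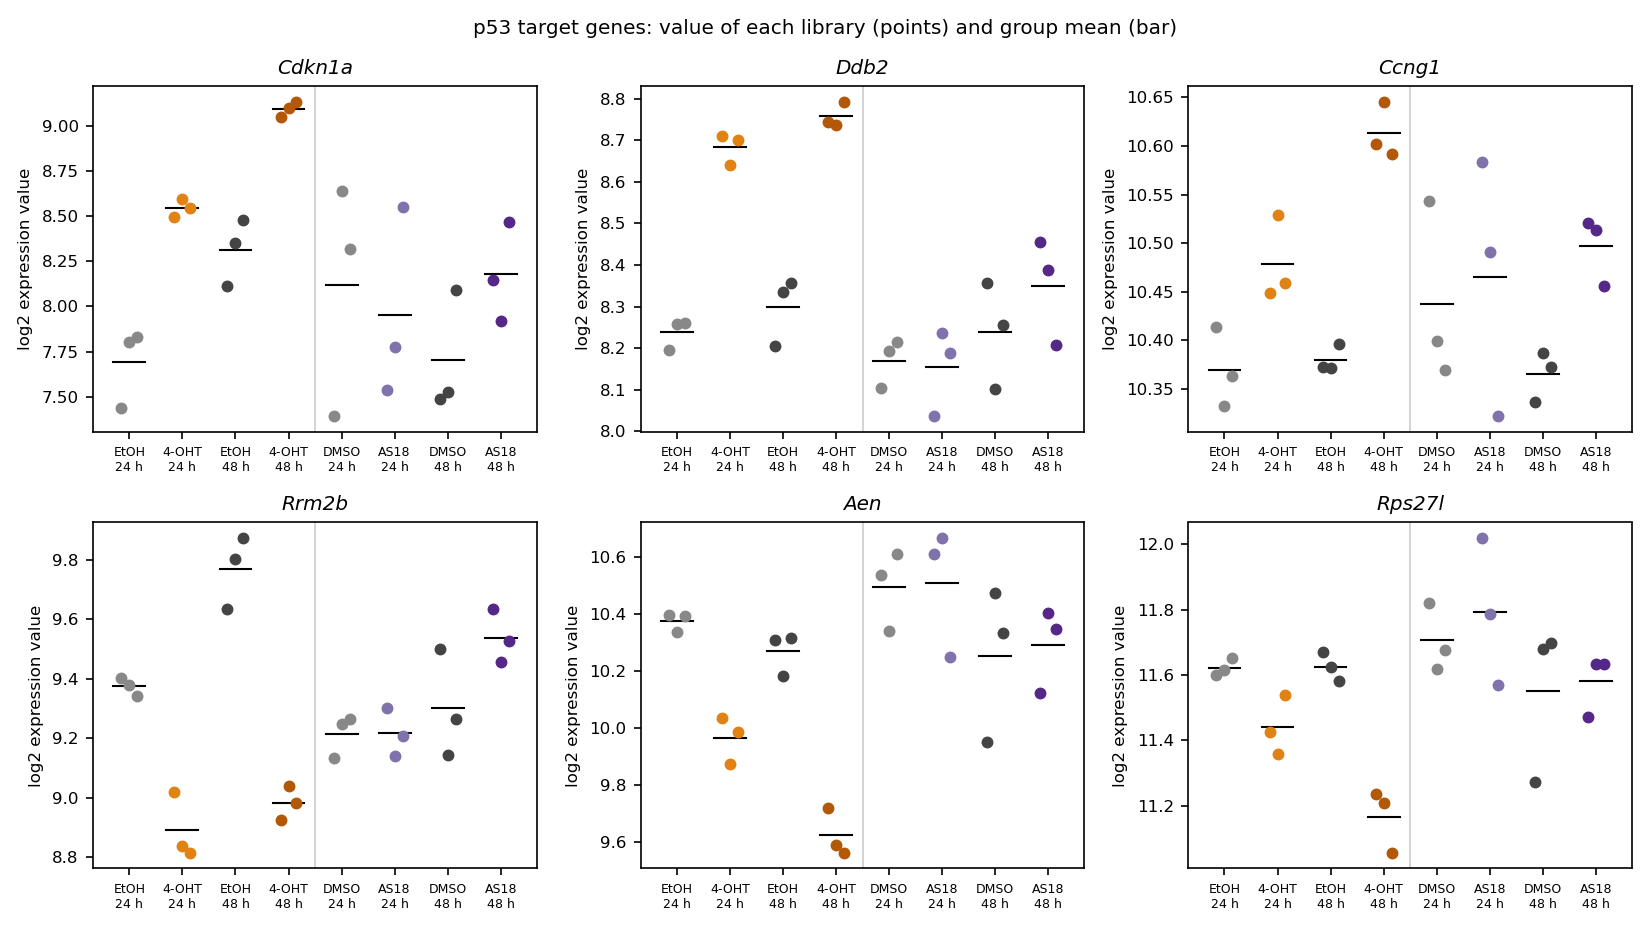
Log2 expression value (vertical axis, a separate scale in each panel) of Cdkn1a, Ddb2, Ccng1, Rrm2b, Aen and Rps27l in each of the 24 libraries; points are libraries, bars are means of 3, and the line separates the deletion arm from the compound arm. At 48 h the 4-OHT libraries lie above all EtOH libraries for the upper 3 genes and below all of them for the lower 3, whereas AS1842856 and DMSO overlap in all panels but Ccng1. With 4-OHT at 48 h, 29.6% of all tested genes lay wholly above EtOH and 30.1% wholly below.

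Of 8 tested genes of the apoptosis branch, 3 fell with 4-OHT at 24 h (Bax, Aen and Pidd1), and at 48 h 3 fell (Bax, Aen and Pmaip1) and Pidd1 rose. The shares over all tested genes were 15.7% higher and 13.7% lower at 24 h, and 25% and 25.8% at 48 h. Bax, which encodes the pore-forming effector of mitochondrial apoptosis, was 10.09, 9.93 and 10.09 with EtOH and 9.78, 9.82 and 9.71 with 4-OHT at 48 h. At 24 h it was 10.09, 10.16 and 10.13 with EtOH and 9.94, 9.99 and 9.98 with 4-OHT, and the groups overlapped at neither time. It fell by 0.16 ± 0.04 at 24 h (adjusted p = 0.0157) and by 0.27 ± 0.06 at 48 h (adjusted p = 0.0039). The 24 h call was lost without the second or the third EtOH library and in the authors' test (adjusted p = 0.085, from the authors' deposited table). Bax shares 915 annotated bases with the protein-coding gene Gm45808 on the same strand, so its reads are not certain to be its own. Aen, the apoptosis-enhancing nuclease, was 10.40, 10.34 and 10.39 with EtOH and 10.04, 9.87 and 9.98 with 4-OHT at 24 h, and 10.31, 10.18 and 10.32 and 9.72, 9.59 and 9.56 at 48 h. It fell by 0.41 ± 0.05 and 0.65 ± 0.06 (adjusted p = 0.000553 and 2.38e-05), without overlap at either time. Bbc3 (PUMA) and Pmaip1 (NOXA) are BH3-only genes, whose products free BAX from its inhibitors. Bbc3 differed by -0.12 ± 0.12 and 0.15 ± 0.09, neither of which passed. Pmaip1 was 8.28, 8.60 and 8.60 with EtOH and 8.07, 8.26 and 8.13 with 4-OHT at 48 h and fell by 0.34 ± 0.10 (adjusted p = 0.0156), a call that was lost in 3 of 6 fits (without the first 4-OHT, the second EtOH or the third EtOH library). After 24 h it was 7.80, 7.97 and 8.08 with EtOH and 8.01, 8.08 and 8.09 with 4-OHT, which overlapped, and the difference of 0.11 ± 0.08 did not pass.

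Pidd1, which encodes the scaffold that activates caspase-2, reversed between the times. It was 9.23, 9.33 and 9.36 with EtOH and 8.98, 8.998 and 8.97 with 4-OHT at 24 h, and fell by 0.32 ± 0.05 (adjusted p = 0.00178). At 48 h it was 8.61, 8.51 and 8.35 with EtOH and 8.99, 8.86 and 8.71 with 4-OHT, and rose by 0.36 ± 0.09 (adjusted p = 0.00849). Neither pair of groups overlapped, and both calls held in every fit without 1 library. Within EtOH the gene fell by 0.82 ± 0.07 between the times (adjusted p = 0.000771), whereas within 4-OHT the difference was -0.13 ± 0.07 (adjusted p = 0.228). The sign of the 4-OHT difference thus turned while the vehicle level moved more than the treated level. In DMSO, where the change between times was not tested, Pidd1 was 9.17, 9.35 and 9.43 at 24 h and 9.15, 9.43 and 9.20 at 48 h, and these overlapped. The remaining apoptosis genes did not pass at either time with limma: Ei24, a gene of an endoplasmic reticulum protein, differed by 0.29 ± 0.11 and 0.19 ± 0.11. Its annotated span overlaps the antisense gene Gm26787 over 3519 bases. Apaf1, the core of the apoptosome, differed by 0.06 ± 0.04 and 0.15 ± 0.06 (limma adjusted p = 0.292 and 0.0547). The authors' test passed Apaf1, higher, at 48 h (adjusted p = 0.0281, from the authors' deposited table). Tnfrsf10b, the mouse death receptor for TRAIL, differed by 0.14 ± 0.07 and -0.13 ± 0.10.

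Of 5 tested metabolic and other targets, Rps27l fell at 24 h, and Tigar and Rps27l fell at 48 h. Beside them, 13.7% of all tested genes were lower at 24 h and 25.8% at 48 h. Tigar, a phosphatase that slows glycolysis, was 8.21, 8.05 and 7.999 with EtOH and 7.76, 7.78 and 7.72 with 4-OHT at 48 h and fell by 0.33 ± 0.07 (adjusted p = 0.00484), after a difference of -0.11 ± 0.06 at 24 h that did not pass. An antisense transcript, Platr31, overlaps it over 9261 bases. Rps27l, a p53-inducible relative of ribosomal protein S27, was 11.67, 11.62 and 11.58 with EtOH and 11.24, 11.21 and 11.06 with 4-OHT at 48 h. At 24 h it was 11.60, 11.61 and 11.65 with EtOH and 11.43, 11.36 and 11.54 with 4-OHT, and neither pair of groups overlapped. It fell by 0.18 ± 0.05 at 24 h (adjusted p = 0.0227) and by 0.46 ± 0.05 at 48 h (adjusted p = 8.6e-05). The 24 h call held in 1 of 6 fits, that without the third 4-OHT library. It was absent from the authors' test (adjusted p = 0.234, from the authors' deposited table). The split of reads between Rps27l and its close relative Rps27 is uncertain. Dcxr, which encodes a xylulose reductase, differed by 0.15 ± 0.08 and 0.13 ± 0.08. Zmat3, an RNA-binding zinc-finger gene, differed by -0.09 ± 0.10 and 0.13 ± 0.08. Fbxw7, a substrate receptor of an SCF ubiquitin ligase, differed by -0.13 ± 0.05 and -0.09 ± 0.04. None of these last 3 passed at either time. Fbxw7 overlaps the protein-coding gene Gm37240 on the opposite strand over 163931 bases.

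In all, 4-OHT raised 2 of the 25 tested genes at 24 h (Cdkn1a and Ddb2) and lowered 6 (Rrm2b, Aen, Pidd1, Rps27l, Bax and Mdm2). Of all tested genes, 15.7% were higher and 13.7% lower in that comparison. At 48 h 6 were higher (Cdkn1a, Ddb2, Pidd1, Ppm1d, Ccng1 and Ercc5) and 8 lower (Rrm2b, Aen, Rps27l, Plk3, Pmaip1, Tigar, Bax and Trp53), where 25% of all tested genes were higher and 25.8% lower. As shares of the 25 genes these are 8% higher and 24% lower at 24 h, and 24% higher and 32% lower at 48 h. The share of risers was thus below the background at 24 h and near it at 48 h. That of fallers was above the background at both times, and no share was tested against it. The median difference over the 25 genes was -0.11 at 24 h and 0.10 at 48 h, against -0.0020 and 0.0054 over all tested genes. At 24 h 5 of the 25 genes lay wholly above EtOH with 4-OHT and 11 wholly below, where 23.3% and 22.7% of all tested genes did. At 48 h these were 8 and 9 genes, where the shares were 29.6% and 30.1%. At 24 h the authors' own adjusted p and a fit of all 8 groups each called 5 of these genes in place of 8, 2 higher and 3 lower. For the 23 calls on these genes in the 4 treatment comparisons, the library difference divided by the log2 fold of the authors' deposited table had a median of 0.652, from 0.515 to 0.994. The library differences of these calls were thus smaller in size than the deposited log2 folds.

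**Figure D3:**
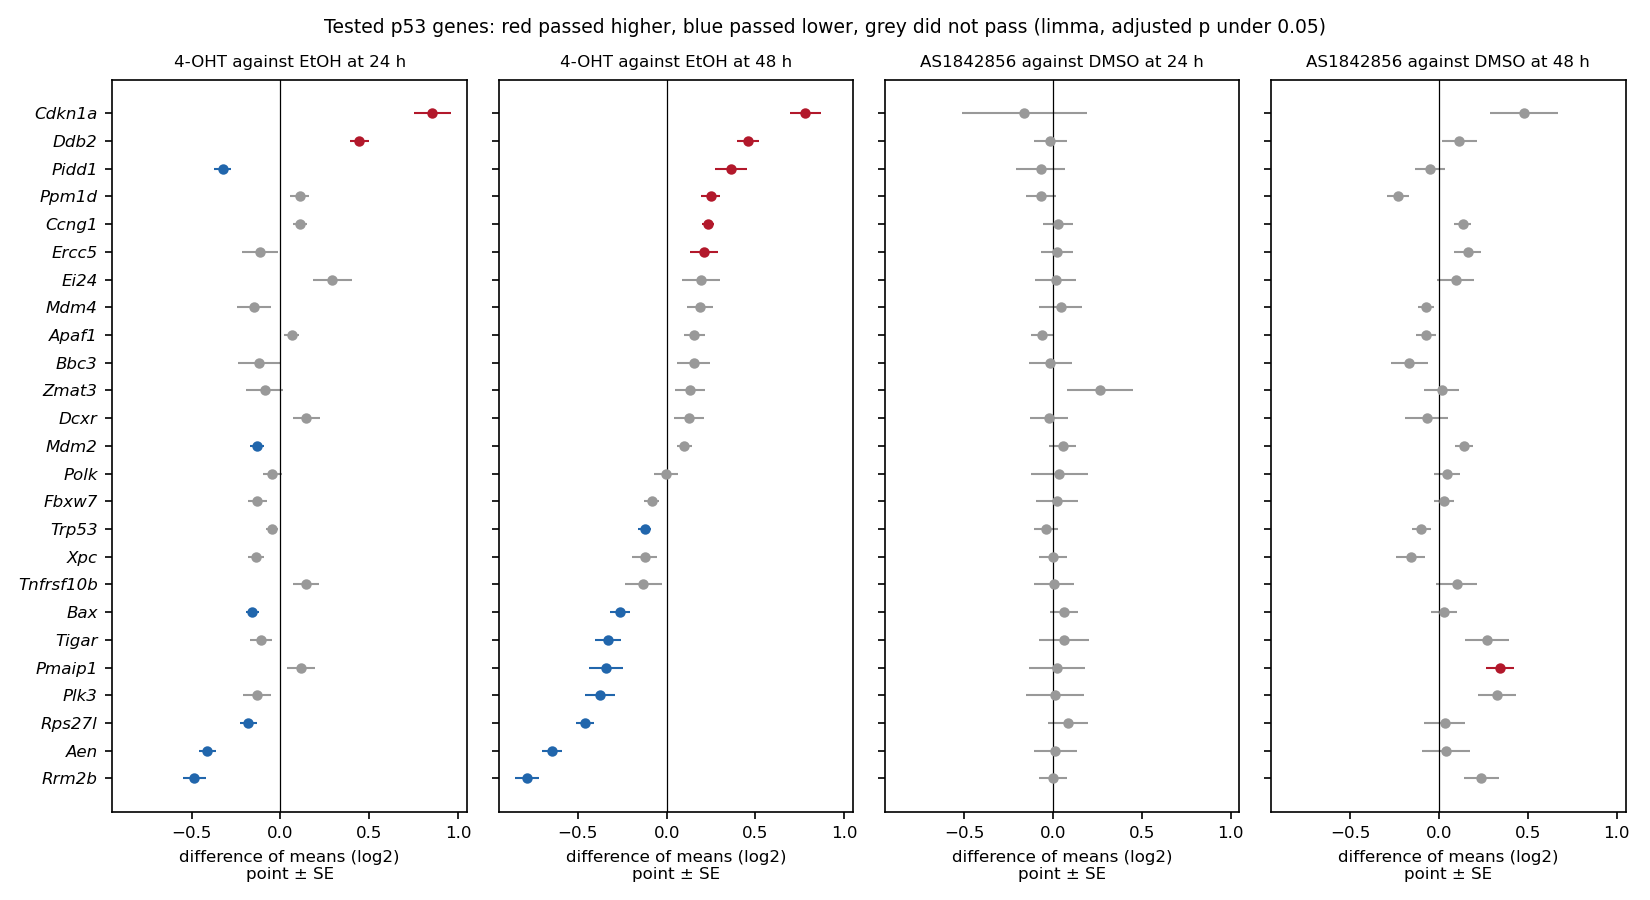
Difference of means on the log2 scale (horizontal axis; points, bars are ± 1 standard error) for the 25 tested genes in each of the 4 treatment comparisons, ordered by the 4-OHT difference at 48 h. Red points passed higher, blue points passed lower and grey points did not pass, in fits without a replicate block. The compound at 24 h has no coloured point, and at 48 h it has 1, Pmaip1.

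With AS1842856 at 24 h, 0 of the 25 genes passed with limma, 0 had an unadjusted p under 0.05, and the authors' test called 0. Across all tested genes 0.00872% were higher and 0% lower. Cdkn1a was 7.39, 8.64 and 8.32 with DMSO and 7.54, 7.78 and 8.55 with AS1842856, a difference of -0.16 ± 0.35 whose 95% interval ran from -0.97 to 0.65. The 3 DMSO libraries alone spanned more than the rise seen with 4-OHT. Rrm2b, by comparison, was 9.13, 9.25 and 9.27 and 9.30, 9.14 and 9.21, with an interval from -0.18 to 0.19. Ddb2 was 8.10, 8.19 and 8.21 and 8.04, 8.24 and 8.19, with an interval from -0.23 to 0.20, which does not reach the 4-OHT rise.

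At 48 h of AS1842856, Pmaip1 alone of the 25 genes passed in the reported fit, which has no replicate block. With the replicate number as a block 4 passed, as given below. Pmaip1 was 8.38, 8.32 and 8.45 with DMSO and 8.73, 8.63 and 8.81 with the compound, without overlap. Without the block it rose by 0.34 ± 0.08 (limma adjusted p = 0.0484). Of all tested genes 1.88% were higher and 2.97% lower. The call was lost in each of the 6 fits that left out 1 library, with adjusted p from 0.0559 to 0.181, and it was also lost with no filter on low values (0.0946), with all 8 groups in 1 fit (0.0711) and in the authors' test (0.0622, from the authors' deposited table). The fit of all 8 groups passed Ppm1d, lower, in its place (adjusted p = 0.0138). With the replicate number as a block, 6.66% of all tested genes were higher and 7.54% lower, and 4 of the 25 passed, 3 higher and 1 lower: Pmaip1, Cdkn1a (adjusted p = 0.015) and Rrm2b (0.0368) were higher and Ppm1d (0.0431) was lower. Cdkn1a was 7.49, 7.53 and 8.09 with DMSO and 8.15, 7.92 and 8.47 with AS1842856, each compound library above the DMSO library of its number but the groups overlapping. Its unblocked difference was 0.48 ± 0.19 (adjusted p = 0.213). Ppm1d was 9.41, 9.43 and 9.32 with DMSO and 9.13, 9.14 and 9.19 with AS1842856, without overlap, a difference of -0.23 ± 0.06 (adjusted p = 0.0727). The authors' test passed Ppm1d and no other of the 30 genes (deposited fold 0.774, adjusted p = 0.00265, from the authors' deposited table). Mdm2 (difference 0.14 ± 0.05), Ccng1 (0.13 ± 0.05) and Plk3 (0.32 ± 0.11) lay above DMSO without overlap and did not pass. With Pmaip1 they make 4 genes wholly above DMSO, and Ppm1d and Mdm4 lay wholly below, where 13.1% of all tested genes lay wholly above and 13.8% wholly below. Mdm2 was 10.32, 10.29 and 10.35 with DMSO and 10.43, 10.52 and 10.43 with AS1842856. Rrm2b was 9.50, 9.14 and 9.26 with DMSO and 9.63, 9.46 and 9.53 with AS1842856, the first DMSO library alone reaching into the treated range. Plk3 was 5.87, 5.87 and 6.0005 with DMSO and 6.10, 6.19 and 6.43 with AS1842856.

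Whether the responses themselves differed was tested on the 4 groups of a time together. At 48 h the AS1842856 response was higher than the 4-OHT response for 7 genes and lower for 4, where 18% of all tested genes were higher and 19.1% lower. Rrm2b differed most, by 1.03 ± 0.13 (adjusted p = 8e-05), having fallen with 4-OHT and stood at 0.24 ± 0.10 with the compound. Plk3 (0.70 ± 0.14), Aen (0.69 ± 0.16), Pmaip1 (0.69 ± 0.13), Tigar (0.60 ± 0.15), Rps27l (0.49 ± 0.14) and Bax (0.29 ± 0.10) were higher too. Ppm1d (-0.48 ± 0.08, adjusted p = 0.000477), Pidd1 (-0.42 ± 0.13), Ddb2 (-0.35 ± 0.12) and Mdm4 (-0.26 ± 0.10) were lower. The calls on Mdm4, Ddb2, Bax and Pidd1 held in 2, 5, 6 and 8 of 12 fits without 1 library, and the other 7 held in all 12. For Cdkn1a the difference of the responses was -0.30 ± 0.23, with a 95% interval from -0.81 to 0.20, and did not pass.

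**Figure D4:**
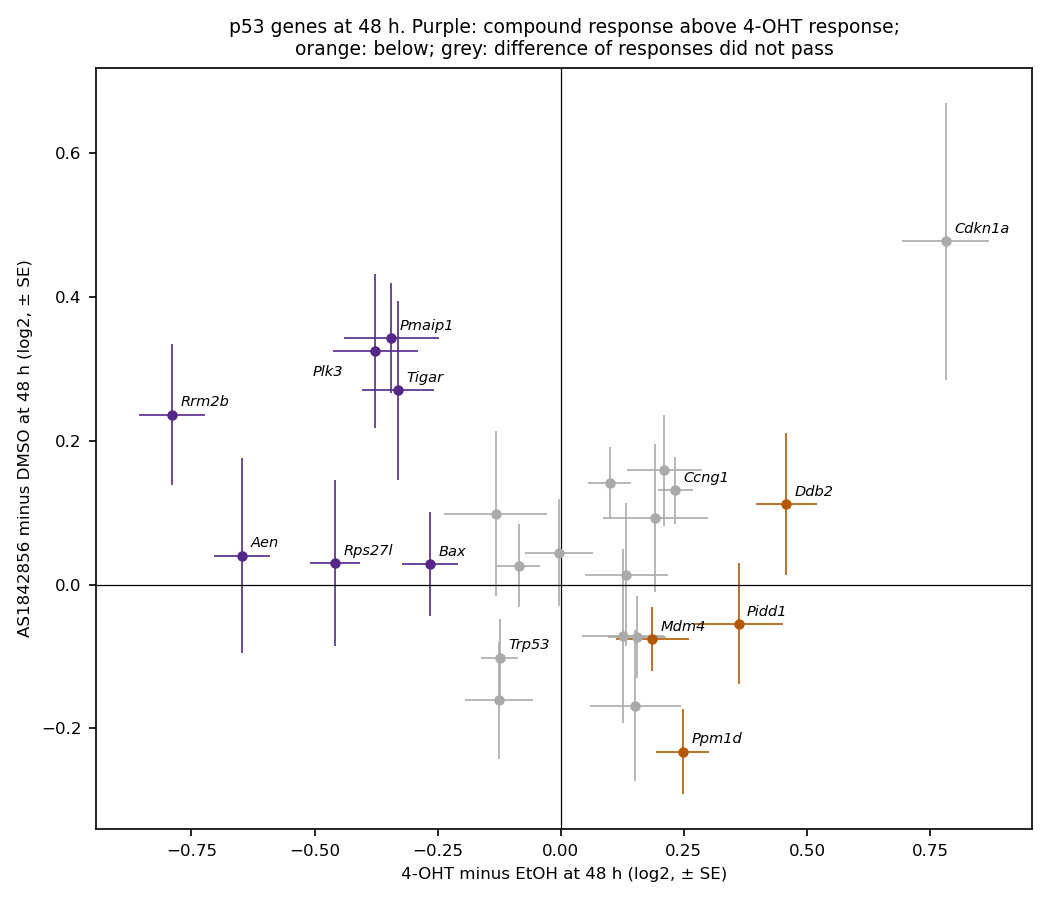
Response to AS1842856 against DMSO (vertical axis) plotted on the response to 4-OHT against EtOH (horizontal axis), both at 48 h as log2 differences with ± 1 standard error, for the 25 tested genes. Purple genes had a higher response to the compound and orange genes a lower one by the test of the difference; Rrm2b, Plk3, Pmaip1 and Tigar lie in the upper left, below zero with 4-OHT and above zero with AS1842856.

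At 24 h the responses differed for Rrm2b (0.49 ± 0.10, adjusted p = 0.0127) and Ddb2 (-0.46 ± 0.10, adjusted p = 0.0164), 1 higher and 1 lower, where 1.95% of all tested genes were higher and 4.15% lower. Without the third AS1842856 library, the farthest from its mates, 7 genes passed: Aen, Bax, Rps27l and Tigar were added as higher and Cdkn1a as lower. Without the first EtOH library 1 gene, Rrm2b, passed.

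Some of these genes also changed with time inside a group, by comparisons added after the values were seen. In EtOH, between 24 h and 48 h, Cdkn1a rose by 0.62 ± 0.13, Pmaip1 by 0.55 ± 0.11, Bbc3 by 0.44 ± 0.10, Rrm2b by 0.40 ± 0.06 and Polk by 0.25 ± 0.07. Pidd1, Ei24 and Mdm2 fell, by 0.82 ± 0.07, 0.43 ± 0.10 and 0.16 ± 0.04. These 5 higher and 3 lower genes compare with 13.4% and 12% of all tested genes, and the adjusted p of the 8 ran from 0.000771 to 0.0277. Rescaling the libraries to equal medians turned the all-gene split from 1534 higher and 1374 lower to 1240 and 1762, and that of the p53 genes to 5 and 4. Without the second EtOH library of 24 h, 5 genes passed. In 4-OHT, Bbc3 rose by 0.71 ± 0.12, Cdkn1a by 0.55 ± 0.05, Polk by 0.29 ± 0.06 and Ccng1 by 0.13 ± 0.04. Ei24, Aen, Tigar, Rps27l, Bax and Trp53 fell, by 0.52 ± 0.11, 0.34 ± 0.06, 0.29 ± 0.06, 0.27 ± 0.06, 0.20 ± 0.04 and 0.15 ± 0.04. These were 4 higher and 6 lower, against 10.6% and 11.6% of all tested genes. Cdkn1a, Bbc3 and Polk thus rose, and Ei24 fell, over time in both EtOH and 4-OHT.

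The change of the 4-OHT response between the times passed for 5 genes, 2 higher (Pidd1, 0.69 ± 0.11, and Mdm2, 0.23 ± 0.06) and 3 lower (Pmaip1, -0.46 ± 0.13, Rrm2b, -0.30 ± 0.10, and Rps27l, -0.28 ± 0.07). Of all tested genes 6.57% were higher and 9.03% lower, a split of 754 and 1036 that became 1011 and 776 with the libraries rescaled to equal medians, where the p53 genes split 3 and 2. The number of these genes fell to 2, Pidd1 and Mdm2, without the first or second EtOH library of 24 h. For Cdkn1a the change was -0.07 ± 0.15, with an interval from -0.39 to 0.25. The AS1842856 response changed between the times for 0 of the 25 genes with limma, with 0 at an unadjusted p under 0.05, against 0% higher and 0.00872% lower over all tested genes. No table of the authors covers that contrast.

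Other p53 targets were counted beside the 30. In a list of 40, of which 33 were tested, 15 were higher and 3 lower with 4-OHT at 24 h, and 17 were higher and 5 lower at 48 h, beside the 15.7% and 13.7%, and the 25% and 25.8%, of all tested genes. The median difference of the 33 was 0.08 at 24 h and 0.16 at 48 h. Btg2, an antiproliferative gene, rose by 1.04 ± 0.05 and 1.95 ± 0.08 (adjusted p = 9.51e-06 and 3.63e-07). Trp53inp1, whose product promotes p53 phosphorylation, rose by 0.65 ± 0.03 and 1.34 ± 0.04 (adjusted p = 1.01e-05 and 1.3e-07). Ccnd1, which encodes cyclin D1 and drives the cell cycle, rose by 0.87 ± 0.05 at 24 h, and Cd82, a tetraspanin gene, by 0.75 ± 0.06. Notch1, a receptor gene, rose by 1.49 ± 0.07 at 48 h and Ephx1, an epoxide hydrolase gene, by 1.15 ± 0.08. With AS1842856 at 24 h 0 of the 33 passed with limma (3 at an unadjusted p under 0.05), and at 48 h 3 were higher and 4 lower. Over all tested genes 0.00872% were higher and 0% lower at 24 h, and 1.88% and 2.97% at 48 h. Sesn1 fell by 0.44 ± 0.06, Pml by 0.39 ± 0.06 and Trp53i11 by 0.37 ± 0.06, and Cd82 rose by 0.80 ± 0.14.

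A further list held 20 genes of mitosis and the G2/M transition that p53 is known to lower through p21, all tested. With 4-OHT 14 were higher and 1 lower at 24 h, and 13 higher and 1 lower at 48 h, with median differences of 0.15 and 0.12. Over all tested genes 15.7% were higher and 13.7% lower at 24 h, and 25% and 25.8% at 48 h, with medians of -0.0020 and 0.0054. Ccnb2, which encodes cyclin B2, rose by 0.29 ± 0.05 and 0.34 ± 0.03, and the phosphatase gene Cdc25b by 0.30 ± 0.03 and 0.32 ± 0.04. Kif20a, a mitotic kinesin gene, rose by 0.21 ± 0.03 and Cdc25c, a phosphatase gene, by 0.29 ± 0.05 at 24 h. Ccnf, which encodes cyclin F, rose by 0.42 ± 0.04 and Foxm1, a transcription factor of G2/M genes, by 0.36 ± 0.04 at 48 h. The gene that fell was Mybl2, by 0.13 ± 0.04 and 0.32 ± 0.04. With AS1842856 at 48 h 0 were higher and 5 lower, with a median of -0.16, against 1.88% and 2.97% of all tested genes and a median of 0.0047. Ccnb2 fell by 0.31 ± 0.04, Ccnf by 0.33 ± 0.05, Aurkb by 0.25 ± 0.04 and Nek2 by 0.24 ± 0.05, each a mitotic regulator, and Foxm1 was the other. At 24 h of the compound 0 of the 20 passed with limma, and 0 had an unadjusted p under 0.05.

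In a list of 30 DNA damage kinases and p53 regulators, all tested, 2 were higher and 4 lower with 4-OHT at 24 h, and 5 were higher and 5 lower at 48 h. Of all tested genes 15.7% were higher and 13.7% lower at 24 h, and 25% and 25.8% at 48 h. Atr, the kinase of the replication stress response, fell by 0.30 ± 0.05 and 0.49 ± 0.04 (adjusted p = 0.00228 and 8.43e-06). Ppp1r13b, whose product ASPP1 binds p53, rose by 0.70 ± 0.11 and 0.78 ± 0.09. Cdkn2a, the locus of the MDM2 inhibitor ARF, fell by 0.21 ± 0.05 and 0.37 ± 0.03. Rchy1, a ubiquitin ligase gene, rose by 0.20 ± 0.05 at 24 h, and Rad50, of the break-sensing complex, fell by 0.24 ± 0.04 at 48 h. AS1842856 lowered 1 of the 30 at 48 h, the repair gene Brca1, by 0.35 ± 0.06 (adjusted p = 0.0262), and 0 at 24 h with limma (1 at an unadjusted p under 0.05). The shares over all tested genes with the compound were 1.88% higher and 2.97% lower at 48 h. The authors' p-values were not applied to these 3 lists.

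**Figure D5:**
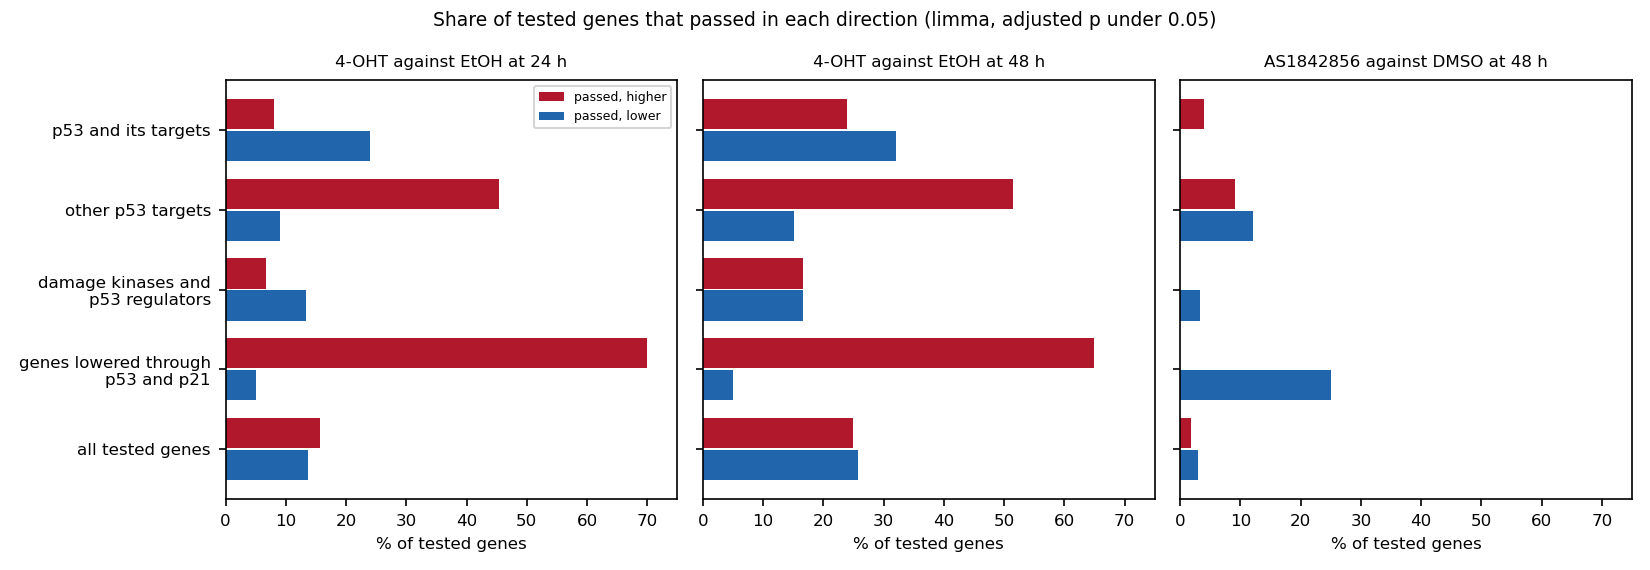
Share of the tested genes of each list that passed higher (red) or lower (blue), in percent (horizontal axis, from 0), for 4-OHT at 24 h and 48 h and AS1842856 at 48 h; bars are shares of 25, 33, 30 and 20 genes and of all 11470 tested genes. For the p53 genes the red bars reach 8%, 24% and 4%, and for genes lowered through p53 and p21 the red bars with 4-OHT are the longest in their panels. No fit shown used a replicate block.

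Markers of other cell types were read beside these results. All 12 B-lineage markers were tested, and the log2 of their summed level lay between 15.7 and 16.2 in every library. At 48 h it was 15.89 to 15.98 with EtOH and 16.16 to 16.20 with 4-OHT, without overlap. In the compound arm at 48 h it was 15.98 to 16.12 with DMSO and 15.68 to 15.77 with AS1842856, again without overlap. At 24 h the treated and vehicle ranges overlapped in both arms. Single B-lineage genes moved too: with 4-OHT 4 were higher and 6 lower at 24 h, and 6 higher and 2 lower at 48 h. The shares over all tested genes were 15.7% higher and 13.7% lower at 24 h, and 25% and 25.8% at 48 h. With AS1842856 0 of the 12 passed with limma at 24 h (2 at an unadjusted p under 0.05), and 7 were lower at 48 h. Over all tested genes 1.88% were higher and 2.97% lower at 48 h of the compound. Dntt, which encodes terminal transferase, rose with 4-OHT by 1.14 ± 0.05 at 48 h, and the lineage factor gene Ebf1 fell by 0.63 ± 0.06 at 24 h and 0.46 ± 0.06 at 48 h. With AS1842856 at 48 h Rag1, of the recombinase that joins antigen receptor genes, fell by 1.49 ± 0.26 and Ebf1 by 0.57 ± 0.06. Of 8 erythroid markers 0 were tested, and both alpha and both beta globin genes were at 0. Of 10 T and NK cell markers 2 were tested: Lck rose with 4-OHT by 1.34 ± 0.04 at 24 h and 1.81 ± 0.06 at 48 h, and Zap70 by 1.05 ± 0.10 and 1.63 ± 0.11. Klrb1c, Cd3g and Trac had deposited means of 3.42, 3.38 and 3.30, just under the filter of 3.46, and were not tested. Cd3d, Cd8a and Cd3e had deposited means of 1.33, 0.63 and 0.41, and Cd4 and Ncr1 were at 0. With AS1842856 at 48 h Zap70 rose by 1.20 ± 0.14 (adjusted p = 0.0066), and Lck, at 0.0047 ± 0.07, did not pass. The log2 of their summed level was 10.3 to 10.7 with EtOH and 11.9 to 12.2 with 4-OHT. Among 10 myeloid markers 3 were tested (Lyz2, Csf1r and Cx3cr1) and rose with 4-OHT at both times, the summed level going from 6.74 to 7.17 with EtOH to 7.60 to 7.93 with 4-OHT. Itgam, Mpo, Cd14 and Adgre1 had deposited means of 1.61, 0.88, 0.37 and 0.32, and Elane, S100a8 and S100a9 were at 0. Of 8 stromal or endothelial markers, Pecam1 alone was tested and rose by 0.59 ± 0.04 and 1.26 ± 0.05. The summed level was 9.37 to 9.71 with EtOH and 10.3 to 10.7 with 4-OHT, and Pecam1, with a deposited mean of 10.10, made up most of it. Pdgfrb, Col1a1, Cdh5, Cxcl12 and Col1a2 had deposited means of 1.17, 0.51, 0.47, 0.19 and 0.06, and Col3a1 and Kdr were at 0. The part of these markers in the p53 gene results was not tested, and in bulk RNA fewer cells of a type and less RNA per cell cannot be told apart.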

How the data were processed

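RNA was sequenced from 24 libraries, 8 groups of 3. The tools STAR 2.7.11b, Salmon 1.1.1 and DESeq2 1.44.0 and the build mm10 are named per the submitters' processing notes, without their roles. The authors deposited 1 table per treatment comparison. Its library columns and mean column hold log2 expression values, per the file headers and the values, after a normalisation and transformation not given in the sources used here. The mean column is not on the scale of the library columns. For Phlda3 it was 2.36 and for Eda2r 0.13, each above every library value of its gene. The deposited log2 fold changes and p-values are the authors' own, and the deposited test statistic is a score. Of 41444 genes, 21444 were listed at 0 in every library and 11470 passed the filter.

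Differences were tested with limma 3.58.1 in R 4.3.3 (trended empirical Bayes variance) on the values as deposited, for the 2 groups compared or, for differences of responses, for 4 groups. Promoter searches and figures used Python 3.11.15 and matplotlib 3.10.9. The test was tested on simulated data. The 30 genes and all gene lists were chosen with earlier results of these data known. All 30 genes were accounted for, and from each other list up to 4 genes with the smallest adjusted p per treatment comparison were named, along with Foxo1; Mybl2, Foxm1 at 48 h of AS1842856, Acp2, Dntt, Ebf1 and Rag1 were named after their values were seen. The 2 comparisons between times within a vehicle or 4-OHT were added after the values were seen. Gene spans and overlaps are from GENCODE M21 on GRCm38. Alternatives were no filter, a higher filter, libraries rescaled to equal medians, a constant prior variance, all 8 groups in 1 fit, the authors' adjusted p, a replicate block and leaving out each library.

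Replicate numbers come from the labels. Libraries that share a number were compared by correlating how far each lay from its group. The values were above 0.1 in all 3 pairs for AS1842856 at 48 h (0.41, 0.25 and 0.15 over the tested genes). This did not hold in the other 3 treatment comparisons, so the numbers may pair libraries in that comparison alone. The reported fits, that comparison included, used no replicate block and leave such pairing out. The block was run as an alternative for the p53 genes, and the other lists and the markers were not counted with it.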

Additional observations from a re-analysis of the deposited data

Results flagged for a closer look

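The response to 4-OHT differed between 24 h and 48 h for 5 of the 25 tested p53 genes by the test of the difference itself (limma contrast over the 4 groups of the deletion arm, Benjamini-Hochberg adjusted over all tested genes). The response of Pidd1 was higher at 48 h by 0.69 ± 0.11 (adjusted p = 0.00125), from a fall at 24 h to a rise at 48 h, with 3 of 3 treated libraries below EtOH at 24 h and 3 of 3 above it at 48 h. That of Mdm2 was higher by 0.23 ± 0.06 (adjusted p = 0.0163), with 3 of 3 treated libraries below EtOH at 24 h and overlap at 48 h. The response of Pmaip1 was lower by -0.46 ± 0.13 (adjusted p = 0.0347), with overlap at 24 h and 3 of 3 treated libraries below EtOH at 48 h. For Rrm2b the change was -0.30 ± 0.10 (adjusted p = 0.0486) and for Rps27l it was -0.28 ± 0.07 (adjusted p = 0.024), both with 3 of 3 treated libraries below EtOH at both times. Leaving out 1 library kept the call in 12 of 12 fits for Pidd1 and Mdm2, in 9 for Rps27l, in 4 for Pmaip1 and in 2 for Rrm2b. Each of these genes except Rps27l also changed with time in EtOH (Pidd1 by -0.82, Mdm2 by -0.16, Pmaip1 by 0.55 and Rrm2b by 0.40 on the log2 scale), and Rps27l differed there by 0.0038 ± 0.0324, which did not pass. The part of the vehicle change in these differences was not tested.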

How the results depend on the processing

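Signs of the p53 gene values turned in 136 of 3610 alternative values, none of them called in either fit, and the largest reported difference among them was 0.162 in size (log2). A narrower count took only genes called as reported, or gained in some alternative, in the comparison concerned. Among these, single-gene values kept their call or lack of it in 952 alternatives, lost it in 155 and gained it in 41. With 4-OHT at 24 h, 8 genes were called as reported, 5 with all 8 groups in 1 fit, 5 by the authors' adjusted p and 5 to 8 without 1 library (5 without replicate 2 or 3 of EtOH). With 4-OHT at 48 h, 14 were called, 12 to 15 without 1 library. For AS1842856 at 48 h, 1 was called, 0 with no filter on low values, 4 with the replicate block and 0 to 1 without 1 library: the fit without the first DMSO library called Rrm2b in place of Pmaip1. The replicate block moved no other count of calls by over 1.5 times. The change of the 4-OHT response gave 5, then 2 with no filter, 1 with all 8 groups and 2 to 5 without 1 library (3 without replicate 3 of 4-OHT or of EtOH at 48 h). For the AS1842856 response minus the 4-OHT response, 2 became 1 to 7 without 1 library at 24 h, and 11 became 7 with no filter and 8 to 11 without 1 library at 48 h. Between times in EtOH 8 became 3 with no filter, 5 with all 8 groups and 5 to 7 without 1 library; in 4-OHT 10 became 6, 4 and 7 to 9. The count stayed at 0 under each alternative run for AS1842856 at 24 h and for its change between the times. The cause of these shifts was not tested. Where a fit leaves 2 libraries in a group, they are assumed to vary like the other group. Rescaling moved the median of all genes by under 0.1 (log2). Because depth is not known, low genes such as Bbc3, Plk3 and Zmat3 have no counting error attached.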
